A study of Mus musculus with 24 samples.

Results

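The genes described here are 10 genes of fast-twitch skeletal muscle, measured in lung and in the left ventricle of the heart of mice. They are Myh1, Myh2, Myh4, Mylpf, Tnnt3, Tnni2, Tnnc2, Actn3, Pvalb and Ckm, 10 of the 18193 genes that the arrays name through a probe set of a single gene. They were chosen by their lung signal, which differed widely among arrays when the same values were first analysed, so their lung levels are given as a description. The heart arrays played no part in that choice. Where several probe sets name a gene, the one whose mean over the 24 arrays was highest stands for it. Values are GCRMA log2 signals, so a difference of 1 is a doubling of signal, and the levels of different probe sets cannot be set against each other.

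Skeletal muscle fibres contract when calcium binds the troponin complex on the thin filament and lets myosin heads pull on actin. Fast fibres and slow fibres build the same machine from different genes: each has its own myosin heavy chain, myosin light chains and troponin subunits, and heart muscle shares several of its genes with slow fibres. The lung has no skeletal muscle of its own, while the diaphragm, chest wall and, in rodents, the wall of the oesophagus next to it hold striated muscle.

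The study measured total RNA on 24 Affymetrix arrays, with 3 arrays in each of 8 groups. The groups were dnCREB mice given particulate matter (PM), dnCREB mice given phosphate-buffered saline (PBS), wild-type mice given PM and wild-type mice given PBS, each in lung and in left ventricle. All were CD-1 mice aged 20 weeks and labelled male, and PM was given at 20 mg/kg as particles of 1.9 µm with harvest at 36 h, while no harvest time is labelled for PBS. dnCREB mice express dominant negative CREB1, a transcription factor disabled in this form, from the alpha myosin heavy chain promoter, which is active in heart muscle cells, and serve as a model of cardiac failure. The design speaks of 3 animals a group. It does not say whether a lung and a heart of the same number came from 1 animal.

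Across the series, arrays of the same tissue correlated at 0.951 to 0.996 in lung and 0.979 to 0.998 in heart. The arrays' lowest values lay at 0.52 to 0.56 in lung and at -0.22 to -0.20 in heart, and their medians at 4.09 to 4.19 in lung and at 3.25 to 3.37 in heart. With baselines this unlike, levels in lung and heart are given side by side and no difference between the tissues is taken. All 9 lung epithelial markers exceeded a log2 of 4 on every lung array, and 8 of 9 never did in heart. A log2 of 4 is used here as the line under which a probe set is treated as low. The exception in heart was the club cell gene Scgb1a1, at 6.30 in wild-type PBS replicate 2. The female-specific RNA Xist ranged from 2.15 to 12.7 among lung arrays and from 2.90 to 13.71 among heart arrays, although every sample is labelled male. In wild-type PBS mice Xist read 2.72, 2.64 and 2.15 in lung and 12.78, 13.05 and 12.05 in heart. The Y-chromosome gene Eif2s3y read 10.19, 9.24 and 9.58 in those lungs and 3.33, 3.23 and 3.34 in those hearts. If the labels hold, a lung and a heart of the same number in that group were thus not of 1 animal. Each other group held numbers that matched in Xist and numbers that did not. Creb1 signal was 7.70 to 9.22 in dnCREB hearts and 8.49 to 9.67 in wild-type hearts, and whether this probe set detects the transgene is not given in the sources used here.

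The promoters of 3 neighbouring myosin genes and of the fast troponin C gene are shown because the fast myosins lie side by side, in the order Myh3, Myh2, Myh1, Myh4, Myh8 and Myh13 on chromosome 11, yet had unlike signals in lung. RefSeq promoters of build GRCm38.p6 (250 bases before to 50 after the annotated start) were available for 7 of the 10 members, with 8 promoters in all. Capitals mark matches, searched on both strands, to the E-box CANNTG (the letters bound by MyoD-type factors), to TATAAA, to the MEF2 site and to the CArG box (the letters of serum response factor).
Myh1, chr11:67199852-67200151, plus strand: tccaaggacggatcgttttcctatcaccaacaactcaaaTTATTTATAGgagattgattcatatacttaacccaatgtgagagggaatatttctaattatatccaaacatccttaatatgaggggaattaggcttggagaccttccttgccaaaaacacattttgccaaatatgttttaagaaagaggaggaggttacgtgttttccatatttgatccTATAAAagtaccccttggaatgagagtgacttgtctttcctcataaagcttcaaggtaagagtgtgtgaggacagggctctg
Myh2, chr11:67170777-67171076, plus strand: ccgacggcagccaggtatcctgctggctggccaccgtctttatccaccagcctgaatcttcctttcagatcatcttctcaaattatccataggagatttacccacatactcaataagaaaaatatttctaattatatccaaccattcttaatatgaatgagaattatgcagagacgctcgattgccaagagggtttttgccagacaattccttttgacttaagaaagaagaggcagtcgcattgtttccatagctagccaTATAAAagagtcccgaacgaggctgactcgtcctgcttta
Myh4, chr11:67237562-67237861, plus strand: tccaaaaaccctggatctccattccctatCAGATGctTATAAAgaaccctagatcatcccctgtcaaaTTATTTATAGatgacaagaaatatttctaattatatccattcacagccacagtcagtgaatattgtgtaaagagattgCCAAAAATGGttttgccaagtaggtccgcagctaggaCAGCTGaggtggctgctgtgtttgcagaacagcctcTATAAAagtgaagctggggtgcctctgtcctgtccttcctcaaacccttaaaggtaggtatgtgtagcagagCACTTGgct
Tnnc2, chr2:164779685-164779984, minus strand: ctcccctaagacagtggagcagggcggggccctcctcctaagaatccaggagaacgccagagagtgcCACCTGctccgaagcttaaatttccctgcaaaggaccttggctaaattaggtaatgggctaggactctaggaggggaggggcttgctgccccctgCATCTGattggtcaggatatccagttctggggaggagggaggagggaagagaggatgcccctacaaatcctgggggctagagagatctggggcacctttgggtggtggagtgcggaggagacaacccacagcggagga

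Myh1 and Myh4 each held a MEF2 match with the same letters, which begins at position -211 in Myh1 and -182 in Myh4, counted from the annotated start, and overlaps a TATAAA on the minus strand. Both also had TATAAA close upstream of the start, at -32 in Myh1 and -31 in Myh4. Myh4 further held 3 E-boxes and a CArG match at -104, Tnnc2 held E-boxes at -183 and -88, and in Myh2 the TATAAA lay 11 bases after the annotated start. A Pvalb promoter whose letters are not printed here also held a MEF2 match, at -180. Of 32851 promoters of this length, 72.3% held an E-box, 13.6% TATAAA, 3.2% a MEF2 match and 1.6% a CArG match, so the E-box is common and the MEF2 and CArG letters are not. These are matches of letters, not measured binding sites.

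**Figure D1:**
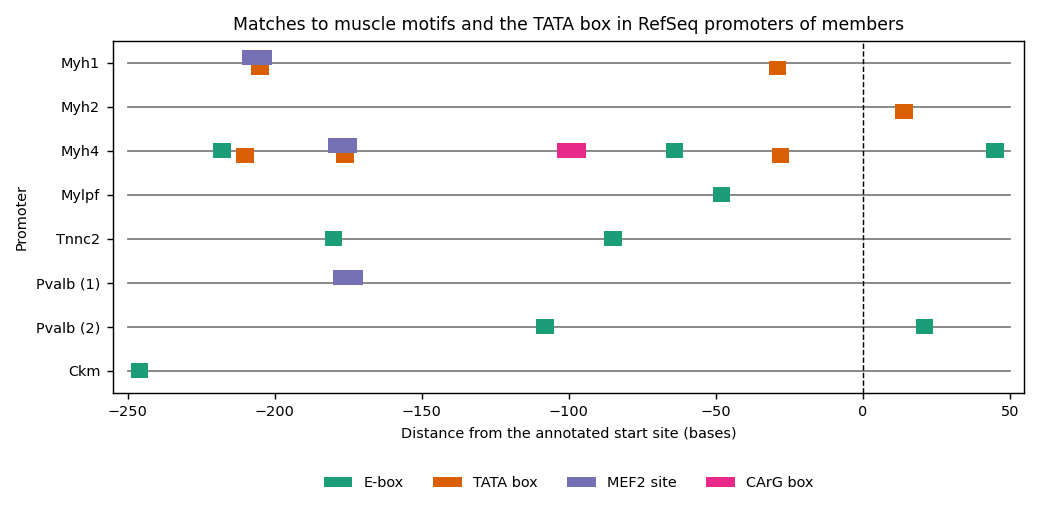
Positions of letter matches in the 8 RefSeq promoters of members, with distance from the annotated start site in bases on the x axis and 1 promoter per line. Myh1, Myh4 and a Pvalb promoter hold a MEF2 match at -211, -182 and -180. Myh1 and Myh4 hold a TATAAA at -32 and -31, and Myh4 alone of the members shown holds a CArG match, at -104.

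Fast muscle transcripts appeared at high signal on 5 of the 12 lung arrays. These were dnCREB PM replicate 3, dnCREB PBS replicates 1 and 3, and wild-type PM replicates 1 and 2. A further array, wild-type PM replicate 3, carried some of the same genes at lower signal, and the other 6 arrays were low for most members. The number of members above 4 was 1, 1 and 7 in dnCREB PM lungs, 7, 2 and 9 in dnCREB PBS lungs, 7, 7 and 6 in wild-type PM lungs and 2, 2 and 1 in wild-type PBS lungs. Ckm counts on all 12 arrays. The 6 on wild-type PM replicate 3 include Ckm at 6.05, below every wild-type PBS lung, and Actn3 at 4.06, against 3.97 to 4.04 in wild-type PBS lungs. The arrays with high signal therefore lay in 3 of the 4 lung groups. In whole tissue, fewer cells of a type and less RNA per cell cannot be told apart.

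**Figure D2:**
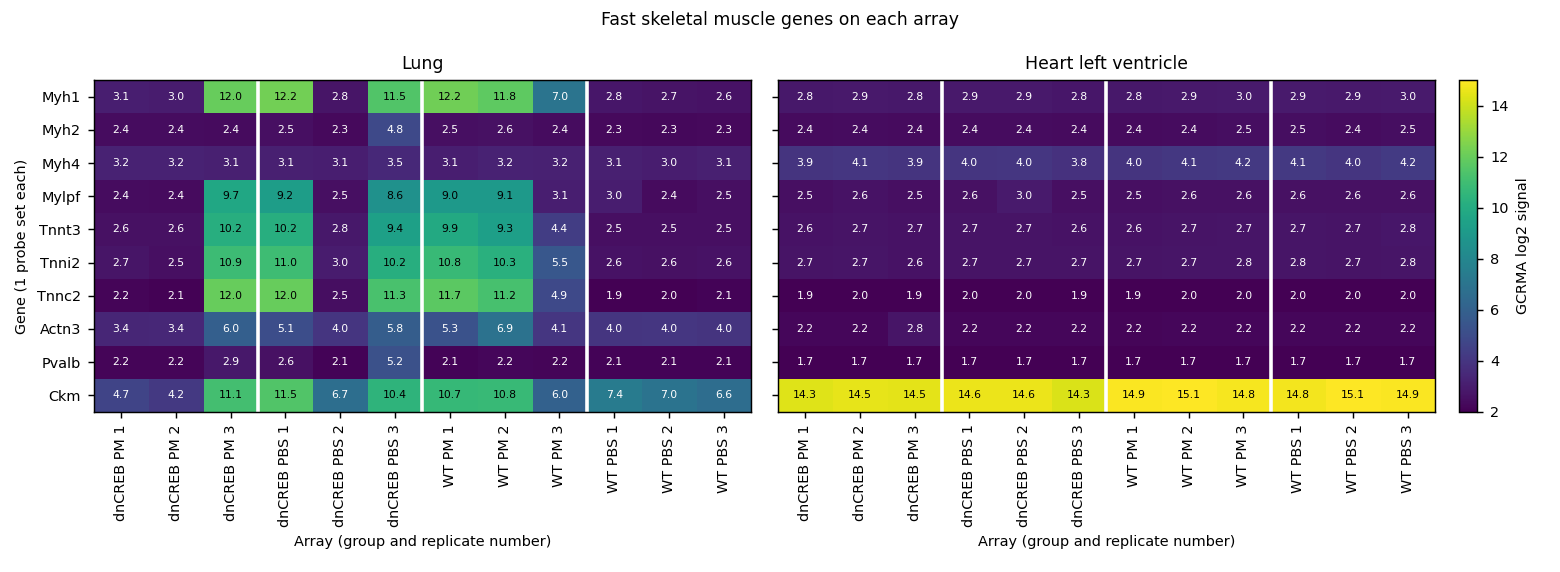
GCRMA log2 signal of each member (rows) on each lung array (left) and heart array (right), coloured on 1 scale, with groups separated by white lines. In lung, 5 columns are bright for Myh1, Mylpf, Tnnt3, Tnni2, Tnnc2 and Ckm, and in heart the Ckm row alone is bright.

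Among the adult fast myosin heavy chains, which set the speed of a fibre, the one with high signal on several lung arrays was Myh1, the chain of type IIX fibres. Myh1 read 3.07, 2.98 and 11.96 in dnCREB PM lungs, 12.25, 2.75 and 11.46 in dnCREB PBS lungs, 12.17, 11.78 and 7.0 in wild-type PM lungs and 2.79, 2.68 and 2.65 in wild-type PBS lungs. The wild-type PM lungs all lay above the wild-type PBS lungs, and both dnCREB groups held low and high arrays. Its probe set, 1427868_x_at, is of a type whose probes may also bind related transcripts. A second Myh1 probe set, 1427520_a_at, ranged from 2.10 to 11.64 and followed it array by array (r = 1.00 over the 12 arrays), while 1452465_at stayed at 2.41 to 2.53 on all of them.

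Myh2, the chain of type IIA fibres, read 2.41, 2.43 and 2.39 in dnCREB PM lungs, 2.54, 2.33 and 4.85 in dnCREB PBS lungs, 2.51, 2.56 and 2.44 in wild-type PM lungs and 2.34, 2.29 and 2.33 in wild-type PBS lungs. It exceeded 4 on 1 array, dnCREB PBS replicate 3. Myh4, the chain of type IIB fibres, stayed at 3.04 to 3.51 on the 12 lung arrays, and its second probe set at 3.27 to 3.83. dnCREB PBS replicate 3 had the highest Myh4 value on both probe sets, still under 4. Pvalb, the calcium buffer parvalbumin that is abundant in type IIB fibres of rodents, read 2.17, 2.16 and 2.86 in dnCREB PM lungs, 2.57, 2.14 and 5.22 in dnCREB PBS lungs, 2.14, 2.22 and 2.16 in wild-type PM lungs and 2.15, 2.12 and 2.13 in wild-type PBS lungs. Its peak was on the same array as that of Myh2. Thus the 4 other arrays with high Myh1 had Myh2, Myh4 and Pvalb all under 4.

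The fast light chain and troponin genes followed Myh1. Mylpf, the fast regulatory light chain, read 2.41, 2.40 and 9.72 in dnCREB PM lungs, 9.23, 2.54 and 8.60 in dnCREB PBS lungs, 9.02, 9.05 and 3.08 in wild-type PM lungs and 3.03, 2.37 and 2.53 in wild-type PBS lungs. On wild-type PM replicate 3 it was close to the highest wild-type PBS lung, unlike Myh1.

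Tnnc2, the calcium-binding subunit of fast troponin, read 2.19, 2.08 and 11.97 in dnCREB PM lungs, 11.99, 2.46 and 11.29 in dnCREB PBS lungs, 11.71, 11.20 and 4.89 in wild-type PM lungs and 1.89, 1.99 and 2.14 in wild-type PBS lungs. Tnni2, the inhibitory subunit, read 2.74, 2.55 and 10.93 in dnCREB PM lungs, 10.98, 2.98 and 10.15 in dnCREB PBS lungs, 10.78, 10.27 and 5.51 in wild-type PM lungs and 2.62, 2.56 and 2.62 in wild-type PBS lungs. Both genes were high on the same 5 arrays and intermediate on wild-type PM replicate 3. Tnnt3, the tropomyosin-binding subunit, read 2.57, 2.56 and 10.15 in dnCREB PM lungs, 10.15, 2.83 and 9.40 in dnCREB PBS lungs, 9.89, 9.34 and 4.36 in wild-type PM lungs and 2.53, 2.51 and 2.52 in wild-type PBS lungs. Tnni2 and Tnnt3 lie close together on chromosome 7, with 1 protein-coding gene, Lsp1, between them. For Tnni2, 1438609_x_at showed the same arrays at up to 6.87, and 1438608_at stayed at 2.30 to 2.42.

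Actn3 moved over a narrower range, and Ckm was above 4 throughout. Actn3, the alpha-actinin of fast fibre Z-discs, read 3.39, 3.43 and 5.96 in dnCREB PM lungs, 5.08, 4.03 and 5.82 in dnCREB PBS lungs, 5.28, 6.88 and 4.06 in wild-type PM lungs and 4.03, 4.04 and 3.97 in wild-type PBS lungs. Ckm, the muscle creatine kinase that regenerates ATP in both skeletal and heart muscle, read 4.68, 4.15 and 11.13 in dnCREB PM lungs, 11.49, 6.69 and 10.45 in dnCREB PBS lungs, 10.71, 10.78 and 6.05 in wild-type PM lungs and 7.40, 6.95 and 6.63 in wild-type PBS lungs. Both were highest on the same 5 arrays. On wild-type PM replicate 3, Ckm was lower than on any wild-type PBS lung while Myh1 was higher. Its second probe set, 1444643_at, read 2.06 to 2.74 in lung and 8.07 to 10.15 in heart.

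These members covaried closely in lung as far as they were detected. Over the 12 lung arrays the median Pearson r among all 10 members was 0.87, with pairs ranging from 0.15 to 1.00, and the median Spearman rho was 0.69. For the 7 members that exceeded 4 on at least 3 lung arrays, the median r was 0.95, the range 0.87 to 1.00 and the median rho 0.84. Myh1, Mylpf, Tnnt3, Tnni2 and Tnnc2 had a median r of 0.99, ranging from 0.97 to 1.00. The low pairs involve Myh2, Myh4 and Pvalb, as in Myh4 and Ckm at 0.15.

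Because arrays fell into separate high and low sets, the size of these coefficients follows the distance between the sets. Over the 6 arrays with Tnnc2 under 4, the 5 genes had a median r of -0.01, ranging from -0.40 to 0.93. Adding wild-type PM replicate 3 to those arrays gave 0.98, ranging from 0.60 to 1.00. The 5 arrays above 8 are too few for a coefficient. On them Myh1 spanned 0.78, Tnnc2 0.79, Tnnt3 0.81, Tnni2 0.83, Ckm 1.04 and Mylpf 1.13 log2 units from the lowest to the highest array. Myh2 and Pvalb correlated at 0.97, which rests on dnCREB PBS replicate 3. Deviations from the 4 group means gave a median r of 0.98 for the 7 detected members, and leaving out dnCREB PM replicate 3 and dnCREB PBS replicate 3, the arrays farthest from the median, gave 0.93.

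**Figure D3:**
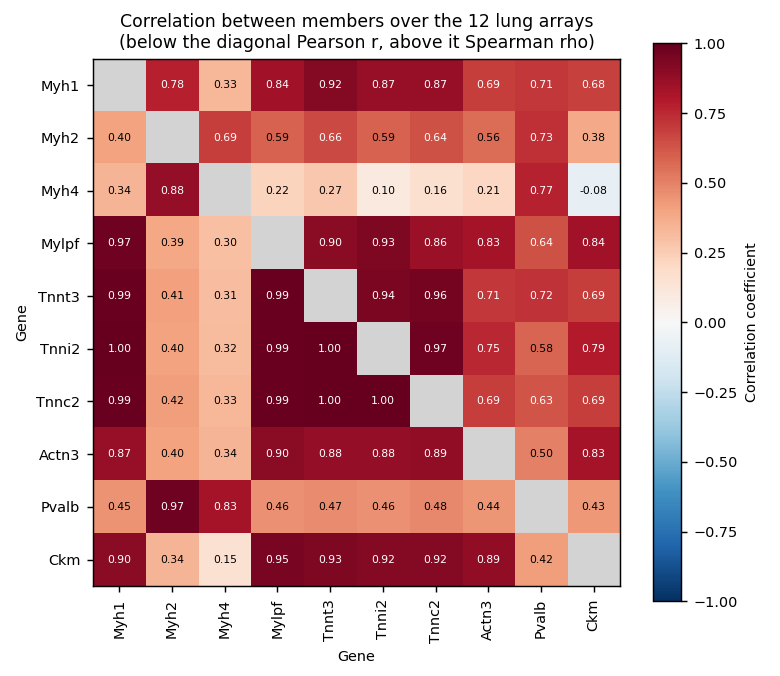
Correlation between each pair of members over the 12 lung arrays, with Pearson r below the diagonal and Spearman rho above it, on a colour scale from -1 to 1. The troponin genes, Mylpf and Myh1 form a block with r from 0.97 to 1.00. Myh2, Myh4 and Pvalb have r of 0.83 to 0.97 with each other, above their r with that block. All 3 peaked on 1 array, dnCREB PBS replicate 3. By rho, Myh2 has 0.78 with Myh1, against 0.73 with Pvalb and 0.69 with Myh4, while Myh4 has 0.10 to 0.33 with the block.

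Set against the study's groups, the members' lung pattern crossed genotype and treatment. Tnnc2 averaged 5.41 ± 5.68 in dnCREB PM lungs, 8.58 ± 5.31 in dnCREB PBS lungs, 9.27 ± 3.8 in wild-type PM lungs and 2.01 ± 0.13 in wild-type PBS lungs (SD, n = 3 each). In limma's moderated test with Benjamini-Hochberg adjustment over 11600 genes, 0 of the 7 members tested were called at an adjusted p under 0.05 for PM against PBS in wild type, where 2.39% of all genes were called. The other comparisons likewise called 0 of 7, beside 0.00862% of genes for PM against PBS in dnCREB, 0.0259% for dnCREB against wild type with PBS, 0% for the same genotypes with PM and 0.00862% for the interaction of genotype and PM. At an unadjusted p under 0.05, the counts of members in this order of 5 comparisons were 4, 0, 1, 0 and 4, beside 26.3%, 9.7%, 5.4%, 4.0% and 5.2% of all genes. The members' median log2 difference was 5.34 for PM against PBS in wild type and -2.63 in dnCREB, beside 0.11 and 0.07 over all genes. It was 4.94 for dnCREB against wild type with PBS and -2.77 with PM, beside -0.03 and -0.05. These comparisons share arrays. The members were chosen on these same values, and the 7 passed the filter on low values through the arrays where they were high, so nothing about genotype or PM is read from these counts and medians.

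In wild-type mice, 6 of the 7 members had every PM lung above every PBS lung, Ckm being the exception, while 26.5% of all genes had groups that did not overlap. Under PBS, 3 of 7 members did not overlap between dnCREB and wild type, against 13.8% of all genes. None of the 7 was without overlap for PM against PBS in dnCREB or for dnCREB against wild type under PM, where 29.1% and 8.34% of genes were. The members were chosen on these lung values, so nothing about genotype or PM is read from these counts either. Xist did not run with the fast muscle signal. It read 12.52, 2.95, 3.02, 12.37 and 2.89 on dnCREB PM replicate 3, dnCREB PBS replicates 1 and 3 and wild-type PM replicates 1 and 2. Eif2s3y read 3.22, 3.18, 3.17, 3.17 and 8.43 on the same arrays, so both genes were low on dnCREB PBS replicates 1 and 3. Among wild-type lungs Xist read 2.72, 2.64 and 2.15 with PBS and 12.37, 2.89 and 12.3 with PM. Sex-chromosome class thus partly coincided with PM there.

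Other genes of the fast sarcomere moved with the members on the same arrays. Of 13 companion genes of fast or general skeletal muscle, 8 correlated above 0.8 with the members' mean over the 12 lung arrays. This list and those below, squamous genes included, were chosen with earlier results of these data known, so their counts are a description. The share of all genes above 0.8 was not counted. Acta1, skeletal actin, read 6.52, 5.61 and 14.16 in dnCREB PM lungs, 14.22, 5.91 and 13.71 in dnCREB PBS lungs, 13.93, 13.49 and 8.17 in wild-type PM lungs and 5.35, 5.96 and 6.93 in wild-type PBS lungs. It had the highest r of all 11593 other genes tested, 0.992. Neb, the thin filament ruler nebulin, reached 8.70 and Mybpc2, the fast myosin-binding protein C, 8.20. Mybpc2 was also raised relative to the wild-type PBS lungs on wild-type PM replicate 3, at 4.92 against 1.95 to 2.12, whereas Neb there was 2.93. Tpm2, a tropomyosin that smooth muscle also uses, stayed at 10.66 to 11.44.

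Of 11 genes that couple excitation to calcium release, 5 passed the same level. Atp2a1, the calcium pump of fast sarcoplasmic reticulum, read 8.82 to 9.28 on the 5 arrays with high Myh1 and 2.72 to 3.88 on the other 7. Casq1, its calcium-storing partner, reached 5.84. Of 12 genes of muscle energy metabolism, 4 passed that level, and 10 exceeded 4 on every lung array. Pygm, muscle glycogen phosphorylase, ranged from 5.79 to 9.59 in lung.

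Slow fibre genes followed the members in 2 of 12 cases. Myh7, the slow and cardiac myosin, stayed at 7.84 to 9.21, with 7.84 on dnCREB PM replicate 3 where Myh1 was 11.96. Tnnc1, the slow and cardiac troponin C, stayed at 8.48 to 10.74, Tnnt1 at 3.64 to 4.64 and Tnni1 at 1.94 to 2.99. The slow and fast troponin genes thus parted, with the 3 fast subunits high on the same 5 arrays and Tnnc1 and Tnnt1 not following them. Tnni1 never exceeded 4, but its values of 2.01 to 2.99 on those 5 arrays lay above the 1.94 to 2.00 of the other 7. Its highest values were 2.99 and 2.80, on wild-type PM replicates 1 and 2. The 2 that followed were Myl3, the slow and ventricular essential light chain, at 9.35 to 10.25 on the 5 arrays, and Mybpc1, the slow myosin-binding protein C, at 6.33 to 7.78. Myl3 was also at 7.63 on wild-type PBS replicate 1, where Myl2, the slow and ventricular regulatory light chain, was 6.26. Myl2 exceeded 4 on 1 more lung array, dnCREB PM replicate 1, at 4.97.

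The developmental myosins differed from each other. Myh8, the perinatal chain that some specialised adult muscles retain, read 3.39, 3.41 and 11.88 in dnCREB PM lungs, 11.42, 3.17 and 10.30 in dnCREB PBS lungs, 11.62, 10.89 and 3.31 in wild-type PM lungs and 3.27, 3.15 and 3.17 in wild-type PBS lungs. It was high on the same 5 arrays as Myh1 and, unlike Myh1, low on wild-type PM replicate 3. Myh3, the embryonic chain, stayed at 3.05 to 3.41. Of 7 measured myogenic regulators, 6 never exceeded 4 in lung, and Myf6, the regulator most tied to mature fibres, peaked at 3.76 on dnCREB PM replicate 3. Of 9 neuromuscular junction genes, 8 never exceeded 4.

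Genes of squamous epithelium moved with the muscle genes as well. Of 9 squamous genes, 7 correlated above 0.8 with the members' mean, and the list's mean level ran from 2.61 to 5.70 in dnCREB PM lungs, 2.53 to 7.64 in dnCREB PBS lungs, 2.58 to 7.97 in wild-type PM lungs and 2.5 to 2.61 in wild-type PBS lungs. Krt4, a keratin of internal squamous linings, read 3.02, 3.02 and 10.17 in dnCREB PM lungs, 12.49, 3.01 and 11.59 in dnCREB PBS lungs, 11.73, 13.03 and 2.94 in wild-type PM lungs and 3.04, 2.83 and 2.84 in wild-type PBS lungs. The same 5 arrays were high for Krt4 and for Myh1. Wild-type PM replicate 3 had Myh1 at 7.0 with Krt4 at 2.94. dnCREB PM replicate 3 had Tnnc2 at 11.97 with Sprr3, a cornified envelope protein, at 2.21, while Sprr3 read 7.01 to 8.91 on the other 4 arrays. The part of the squamous tissue in the muscle signal was not tested.

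Of the 15 genes most like the members' mean by Pearson r over the 12 lung arrays, 11 belonged to the lists above. In order they were Acta1, Atp2a1, Mt4, Myh8, Myot, Mybpc1, Neb, Krt4, Lce3f, Casq1, Krtdap, Krt5, Apobec2, Krt13 and Lgals7, with r from 0.992 to 0.961. Mt4, a metallothionein of stratified squamous epithelium, stood behind Acta1 and Atp2a1, at 9.27 to 10.01 on the 5 arrays and 2.74 to 2.96 on the other 7. Myot is the Z-disc protein myotilin, Apobec2 a muscle-enriched deaminase family member, and Lce3f, Krtdap and Lgals7 are keratinocyte genes. In all, 28 of 11593 genes had r above 0.9. Neither lung epithelial markers, of which 0 of 9 passed 0.8, nor the cardiac and atrial list, 0 of 8, followed the members. The list mean of the lung markers stayed at 12.82 to 13.26.

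**Figure D4:**
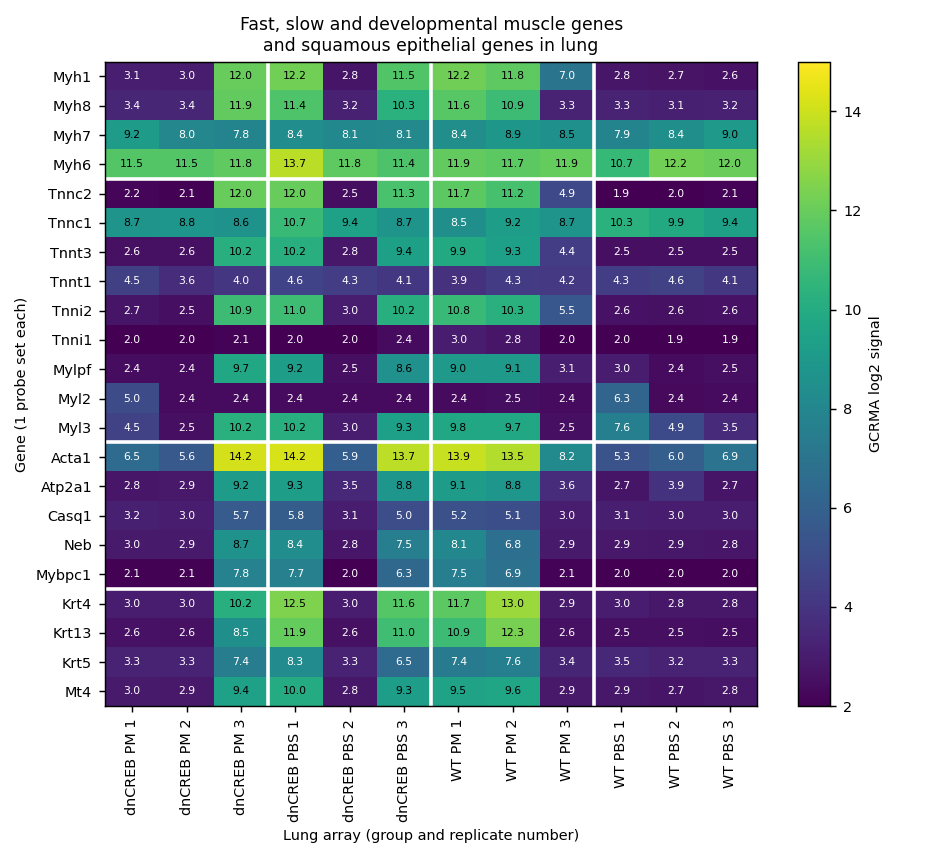
GCRMA log2 signal on each lung array (columns, groups separated by white lines) of myosin heavy chains, fast and slow troponin and light chain genes, other muscle genes and squamous genes (rows). Myh1, Myh8, Tnnc2, Acta1 and Krt4 are bright on the same 5 arrays, wild-type PM replicate 3 is brighter than the wild-type PBS arrays for Myh1, the fast troponins and Acta1 but not for Myh8 or Krt4, and Myh7 and Tnnc1 do not follow.

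In heart, 8 of the 10 members never exceeded 4. Myh1 read 2.81 to 2.96, Mylpf 2.52 to 2.96, Tnnc2 1.92 to 2.03 and Tnni2 2.63 to 2.76 over the 12 arrays, and Actn3 peaked at 2.75 on dnCREB PM replicate 3. No heart array carried the fast set seen in lung. The slow and cardiac counterparts were high there, with Tnnc1 at 15.25 to 15.73 and Myl3 at 15.88 to 16.45. The median r among members in heart was 0.55, ranging from -0.48 to 0.99, over values that spanned 0.08 to 0.55 log2 units in the 8 low members, and centring each array on its median reduced it to 0.06.

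Ckm was the member with high signal in heart, and on the probe set used it was lower in dnCREB than in wild-type hearts. It read 14.35, 14.54 and 14.48 in dnCREB PM hearts, 14.61, 14.64 and 14.26 in hearts of dnCREB mice given PBS, 14.91, 15.08 and 14.80 in wild-type PM hearts and 14.79, 15.11 and 14.92 in wild-type PBS hearts. On that probe set each dnCREB heart lay below each wild-type heart. Groups without overlap were found for 36.5% of all genes under PM and 42.7% under PBS. The second Ckm probe set, 1444643_at, overlapped between genotypes. It read 9.28, 8.61 and 9.36 in dnCREB PM hearts and 9.50, 10.15 and 8.96 in wild-type PM hearts. With PBS it read 8.07, 9.28 and 9.10 in dnCREB hearts and 9.30, 9.97 and 9.00 in wild-type hearts. For the probe set used, the means were 14.46 ± 0.09 in dnCREB PM hearts and 14.93 ± 0.14 in wild-type PM hearts (SD, n = 3 each). Under PM the log2 difference of dnCREB against wild type was -0.47 ± 0.14 (SE), with an adjusted p of 0.0364 in limma over 9962 genes, so Ckm fell. Under PBS it was -0.44 ± 0.14, with an adjusted p of 0.0507, which missed the threshold of 0.05. Under PM 20.5% of genes were called and 9.13% were called lower, and under PBS 18.8% and 5.6%.

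The Ckm call under PM is a narrow one. Its adjusted p ran from 0.0208 to 0.2175 over the alternatives, and it was lost when arrays were centred on their median (0.0579). Xist was above 12 in all 6 wild-type hearts and under 4 in 5 of the 6 dnCREB hearts, so genotype and sex-chromosome class nearly coincided and their parts cannot be told apart. With that class as a covariate, chosen after seeing the data, the adjusted p was 0.2175 and the difference -0.45. The 1 dnCREB heart with high Xist, PM replicate 3 at 13.71, had Ckm at 14.48, within the range of the other dnCREB hearts.

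PM changed Ckm by -0.05 ± 0.14 in dnCREB hearts and -0.01 ± 0.14 in wild-type hearts (SE), and the interaction was -0.03 ± 0.19. None of the 3 was called (adjusted p = 0.9997, 1.0 and 0.9929, limma), beside 0%, 0.01% and 0% of genes, and each estimate was smaller than its error. Myh4, the other member tested in heart, sat at the low line, with 3.94, 4.08 and 3.94 in dnCREB PM hearts, 4.03, 4.04 and 3.84 in hearts of dnCREB mice given PBS, 3.98, 4.10 and 4.15 in wild-type PM hearts and 4.14, 4.02 and 4.20 in wild-type PBS hearts. Its groups overlapped under both treatments. It differed by -0.09 ± 0.10 under PM and -0.15 ± 0.10 under PBS between dnCREB and wild type, and neither was called (adjusted p = 0.5591 and 0.3371, limma). Its second probe set read 2.76 to 2.94.

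**Figure D5:**
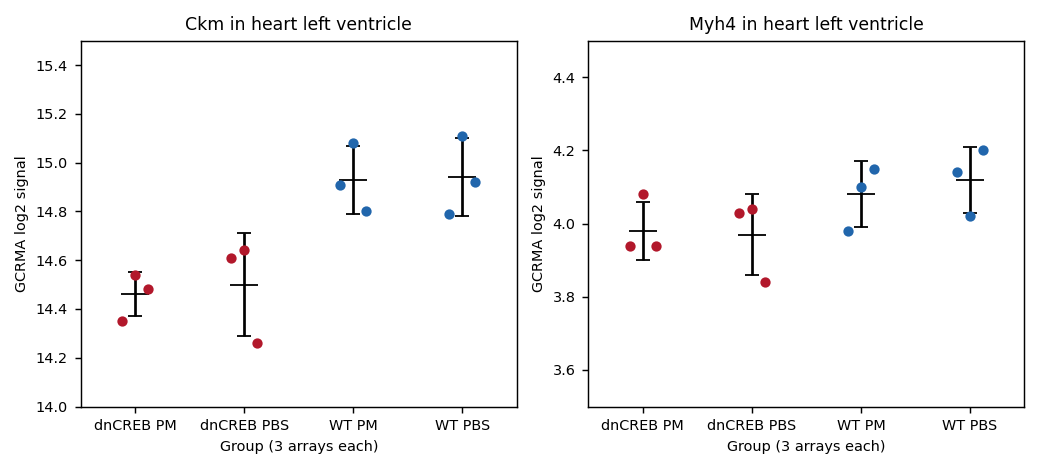
GCRMA log2 signal of Ckm (left) and Myh4 (right) in heart left ventricle by group, with 1 point per array and the mean and SD of 3 arrays; the y axes do not start at 0. On the probe set used, all 6 dnCREB points for Ckm, 14.26 to 14.64, sit below all 6 wild-type points, 14.79 to 15.11. The Myh4 groups overlap near 4.

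Other genes of muscle energy metabolism were measured in heart beside Ckm. Of 11 such genes tested, 5 fell and 1 rose in dnCREB against wild-type hearts under PM, where 20.5% of all genes were called and 9.13% were called lower. Under PBS 5 fell and 1 rose, where these shares were 18.8% and 5.6%. The list's median differences were -0.39 under PM and -0.44 under PBS, beside 0.02 and 0.09 over all genes, and no test of the list was made. Pygm fell by 0.55 ± 0.14 under PM and by 0.44 ± 0.14 under PBS (SE; adjusted p = 0.0174 and 0.0460, limma). Skeletal actin went the other way: Acta1 read 14.56, 14.82 and 14.99 in dnCREB PM hearts and 12.27, 13.28 and 13.62 in wild-type PM hearts, a difference of 1.73 ± 0.40 (SE; adjusted p = 0.0137, limma). It is the companion gene with the widest range in lung, where its high arrays were those of Myh1. Myh7 rose in dnCREB hearts by 2.88 ± 0.75 under PM (SE; adjusted p = 0.0233, limma). It read 15.3, 15.12 and 15.24 in dnCREB PM hearts and 11.66, 11.01 and 14.34 in wild-type PM hearts. As for Ckm, the parts of genotype and sex-chromosome class cannot be told apart for any of these genes. The genes most like the mean of Ckm and Myh4 over the 12 heart arrays were Ndufa10, Tecr, Eci1, 2310040G24Rik and Osbpl1a, with r from 0.978 to 0.963. These coefficients span both genotypes, between which Ckm parted. Eci1 parted as well, at 11.32 to 12.60 in dnCREB and 13.23 to 13.63 in wild-type hearts. Myh4 sat at the low line, and r within a genotype was not taken.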

How the data were processed

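The deposited values are log2 signals, made by the authors with GCRMA per the submitters' processing notes; the array design and genome build are not given in the sources used here, and the separate baselines of lung and heart are read from the values. Of 45037 probe sets, 34945 name 1 gene, 932 several and 9160 none, by the GEO platform annotation; only the first kind was used, giving 18193 genes with the probe set of highest mean over the 24 arrays. A gene was tested in a tissue where at least 3 arrays exceeded a log2 of 4 (11600 genes in lung, 9962 in heart). limma 3.58.1 (R 4.3.3) fitted 4 group means per tissue with eBayes, p-values were adjusted by Benjamini-Hochberg over the tissue's tested genes, and the fit was tested on simulated data. With 3 arrays a group, the number of arrays limits the precision. The p-values set a difference between groups against the spread between arrays within the groups. The members and lists were chosen with earlier results of these data known. Named genes are the members, fixed paralogs, label checks, up to 4 genes of widest and 4 of narrowest lung range in each list, and the 15 (lung) and 5 (heart) genes most like the members' mean. Alternatives were quantile normalization, centring, other filters and probe set rules, variance models, array weights, the replicate block, fits of the compared groups alone, leaving out each array, and the Xist class in heart.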

Additional observations from a re-analysis of the deposited data

How the results depend on the processing

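No member was called in any of the 5 lung comparisons by limma under any alternative run, whichever members its filter kept. The main fit called 2.39%, 0.00862%, 0.0259%, 0% and 0.00862% of all genes in these comparisons, in the order given above. The members were chosen on these lung values, so nothing about genotype or PM is read from this. The median r of the 10 members in lung was 0.692 as Spearman rho, 0.783 after centring arrays on their median, 0.832 with the mean of all probe sets, and 0.774 to 0.887 when 1 array at a time was left out (lowest without dnCREB PBS replicate 3). In heart that median was 0.825 as Spearman rho, 0.337 after quantile normalization, 0.059 after centring, 0.242 with the mean of all probe sets, 0.319 without the 2 arrays farthest from the median, and 0.461 to 0.9 with 1 array left out (0.882 without dnCREB PBS replicate 2, 0.9 without dnCREB PM replicate 3). For dnCREB against wild type under PBS in heart, 1 member (Ckm) instead of 0 was called with the filter at a log2 of 6, with a trended robust variance and with the replicate block; leaving out 1 array gave 0 throughout. Under PM, 0 instead of 1 was called after quantile normalization, after centring, with the mean of all probe sets, with only the groups compared and with the sex-chromosome class; leaving out 1 array gave 0 to 1, with 0 without wild-type PBS replicate 3, any wild-type PM replicate, or dnCREB PM replicates 1 or 3. The cause was not tested. The replicate block changed no other count of members called. Deviations of same-numbered arrays of different groups correlated at -0.332 to 0.334 in lung, where 3 of 18 pairs exceeded 0.1, and at -0.300 to 0.311 in heart, where 4 of 18 did. No pairing by number was thus seen within a tissue, though pairs this few cannot exclude one, and lung was not set against heart. The direction of Ckm in dnCREB against wild-type hearts stayed negative under every alternative, at -0.537 to -0.314. Members under 4 lie below the line treated here as low, so their small differences in heart are not interpreted. Over all genes, array weights raised the lung counts from 277 to 738 for PM against PBS in wild type, from 1 to 1772 for PM against PBS in dnCREB, from 3 to 172 for dnCREB against wild type with PBS and from 1 to 2 for the interaction. The 277 became 85 without a filter and 24 with only the groups compared, and 38 to 625 with 1 array left out. In heart the sex-chromosome class gave 337 calls against 1869 with PBS and 942 against 2042 with PM, where only the groups compared gave 1168.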

Other observations

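dnCREB PBS replicate 1 carried more than fast muscle genes among the lung arrays. Ucp1, the uncoupling protein of brown fat, read 10.29 there and 2.17 to 3.59 on the other 11 lung arrays. Rag1, the recombinase subunit of immature lymphocytes, read 9.16 there and 2.5 to 2.64 on the others, and the adipocyte hormone Adipoq 11.44 against 3.56 to 9.47. Other genes listed for thymus (Rag2, Ptcra and Dntt) and for adipocytes (Lep) read 3.99, 2.43, 2.61 and 2.07 there, all under 4. From the same lists Cd3e, Cd8a, Cidec and Cidea read 7.52, 6.42, 8.50 and 9.76, each its highest lung value. Nppa, the atrial natriuretic peptide, was 13.83 on this array, above the 4.93 to 11.75 of the others. The fast muscle arrays dnCREB PM replicate 3, dnCREB PBS replicate 3 and wild-type PM replicates 1 and 2 had Ucp1 at 2.31, 2.21, 2.20 and 3.59.

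Wild-type PBS replicate 1 and dnCREB PM replicate 1, with Myl2 at 6.26 and 4.97, had Myh1 at 2.79 and 3.07. Myl2 on the other 10 lung arrays was 2.35 to 2.46.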
